A study of Homo sapiens with 4 samples.

Results

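TNFRSF1A and 9 genes of the death receptor pathway were followed through RNA-seq gene counts of HAP1, a near-haploid human cell line. The 10 genes were chosen by role, with earlier results of these data known. TNFRSF1A was taken because the study follows it as a transcript linked to BAP1, and the others because they encode related receptors (LTBR, TNFRSF10A, TNFRSF10B, TNFRSF12A and TNFRSF21), adaptors (TRADD and FADD), a kinase (RIPK1) and a caspase (CASP8). They are 10 of the 57820 genes in the count files. LTBR had no counts, so 9 of the 10 stood among the 15136 genes that passed the filter on low counts (CPM, the count scaled to a total of 1000000 gene reads, above 0.5 in at least 2 libraries) and were tested.

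The 4 libraries came from untreated cells that all lacked RING1A and RING1B, which carry the catalytic activity of the Polycomb complex PRC1. The dKO group (2 libraries) carried these KOs alone, and the tKO group (2 libraries) had BAP1 inactivated as well. Its comparison with dKO asks how transcription responds to loss of BAP1, a deubiquitinase of histone H2A, where the enzymes that place this ubiquitin are missing. BAP1 and RING1A were disrupted by an inserted STOP cassette in clones selected with an antibiotic, and the cells without RING1B were a purchased KO. No library with intact PRC1 is among the 4, and the sources used here do not say whether the libraries of a group came from one clone. The study describes its replicates as independent biological replicates, and p-values below measure the spread between these libraries only.

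Gene counts numbered between 16054590 and 18455410 per library, and 3 counts corresponded to 0.163 to 0.187 CPM. The targeted BAP1 transcript had 2046 and 2010 counts in dKO, 158 in tKO 1 and 107 in tKO 2 (log2 fold change -3.77 ± 0.19 SE, limma adjusted p = 0.0065). RING1, which encodes RING1A, had 12 to 17 counts in every library, and RNF2, which encodes RING1B, was still transcribed with 1102 to 1561 counts. HAP1 derives from a leukaemia line but grows attached. Of 8 haematopoietic marker genes, 7 had at most 5 counts in any library, among them PTPRC, SPI1 and GATA1, and KIT was the exception with 741 to 1056 counts. The summed haematopoietic level ran from 46.5 to 59.0 CPM. Summed VIM, KRT8, KRT18 and LGALS1 reached 544 and 514 CPM in dKO, 292 in tKO 1 and 511 in tKO 2, nearly all of it VIM. The lesser genes of this list were lowest in tKO 2, where TNFRSF1A was also lowest. LGALS1 had 123 and 197 counts in dKO, 85 in tKO 1 and 34 in tKO 2, KRT8 had 18, 21, 12 and 8 in library order, and KRT18 had 410, 411, 370 and 299. The part of these shifts in the results below was not tested. The tKO libraries also stood apart from each other over a stretch of chromosome 10 (low in tKO 1, median log2 ratio to dKO -0.97) and of chromosome 3 (low in tKO 2, -0.92). No member and no other pathway gene described below lies in either stretch. That statement does not cover the targeted genes BAP1, RING1 and RNF2. The part of the chromosome 3 stretch in the BAP1 counts of tKO 2 was not tested.

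Receptors of the TNF receptor superfamily bind trimeric ligands at the cell surface. Those with a death domain in their cytoplasmic tail (TNFRSF1A, TNFRSF10A, TNFRSF10B and TNFRSF21 here) recruit adaptors that carry the same fold. TNFRSF1A, the main receptor of TNF, gathers TRADD and RIPK1 to activate NF-kB, and can hand over to FADD and CASP8, which start apoptosis. TNFRSF10A and TNFRSF10B, the receptors of TRAIL, bind FADD directly, whereas LTBR and TNFRSF12A have no death domain and signal through TRAF proteins.

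TNFRSF1A (ENSG00000067182.3) and LTBR (ENSG00000111321.6), the receptor of lymphotoxin, are close neighbours on chromosome 12. TNFRSF1A spans 6437923 to 6451280 on the minus strand and LTBR 6484211 to 6500737 on the plus strand (GRCh37), leaving 32.9 kb between them. The window of 250 bases before the transcription start that RefSeq gives for each is shown here because one gene had reads in these cells and the other had none. Both sequences are RefSeq's (its human build GRCh38) and were placed on GRCh37 by an exact match, which was unique for each. The TNFRSF1A bases shown lie at chr12:6451281-6451492 on the minus strand (212 bases, without the 38 that fall in the first exon of the longest model), and those of LTBR at chr12:6493078-6493327 on the plus strand, inside the longer LTBR gene model used for the counts. They run 5′ to 3′, with every CpG dinucleotide in capitals.
TNFRSF1A: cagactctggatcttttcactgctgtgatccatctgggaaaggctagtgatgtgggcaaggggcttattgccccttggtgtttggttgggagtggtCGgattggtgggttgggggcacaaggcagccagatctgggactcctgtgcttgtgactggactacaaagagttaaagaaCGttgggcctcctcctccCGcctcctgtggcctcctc
LTBR: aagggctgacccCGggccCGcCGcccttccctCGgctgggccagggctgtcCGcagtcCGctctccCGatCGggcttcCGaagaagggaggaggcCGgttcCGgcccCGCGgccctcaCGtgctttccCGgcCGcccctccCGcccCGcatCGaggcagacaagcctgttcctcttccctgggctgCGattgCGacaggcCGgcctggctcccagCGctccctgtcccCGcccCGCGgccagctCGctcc

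Over its full window TNFRSF1A held 4 CpG, 3 of them in the bases shown, and 56.8% G and C, and LTBR held 27 CpG and 74.8%. Over 35116 promoters cut in the same way the median was 11.0 CpG and 58.0% G and C. As many CpG as in TNFRSF1A stood in 70.7% of them, and as many as in LTBR in 17.7%. The GC box (GGGCGG, either strand) occurred 4 times before LTBR and not before TNFRSF1A, and 42.6% of all promoters held it. The letters TATAAA (either strand) were in neither, and in 10.7% of all promoters. Of the 10 members, 6 had an entry in the RefSeq promoter table. FADD had 32 CpG in its window and TNFRSF21 had 20. CASP8, with 3 annotated starts, had 6, 5 and 5, and the 3 starts of RIPK1 had 29, 14 and 28.

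TNFRSF1A was the member with the lowest level in tKO relative to dKO, and most of that distance came from one library. It had 333 counts (18.0 CPM) in dKO 1, 264 (14.7 CPM) in dKO 2, 203 (12.4 CPM) in tKO 1 and 37 (2.30 CPM) in tKO 2. Both tKO libraries were below both dKO libraries, tKO 1 by little and tKO 2 by much. Library tKO 1 held 75.5% of the dKO level (exact 95% interval 64.1 to 88.7) and tKO 2 held 14.1% (9.81 to 19.6). These intervals cover counting error only, and they treat reads as independent, which reads copied by PCR are not. They do not cover the spread between libraries, and for the same gene dKO 2 stood at 0.813 of dKO 1 (0.689 to 0.959), a distance in log2 CPM (-0.32) close to that of tKO 1 from the dKO mean (-0.38).

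On the log2 CPM scale TNFRSF1A differed between tKO and dKO by -1.57 ± 0.69 (SE, n = 2 per group), with a 95% interval of -3.21 to 0.07. The difference did not pass in limma (unadjusted p = 0.0577, adjusted p = 0.996). Set alone against dKO, tKO 1 gave a log2 fold change of -0.38 ± 0.20 (limma adjusted p = 0.503) and tKO 2 one of -2.77 ± 0.24 (limma adjusted p = 6.51e-27). A fit with a single tKO library assumes that it varies as the dKO pair does, so it compares that library with dKO and not the genotypes. The tKO 2 fit called 3.25% of all tested genes and the tKO 1 fit 1.21%, where a call needed an adjusted p under 0.05 with more than a 2-fold change. In a bulk sample, fewer cells that transcribe a gene and less RNA per cell cannot be told apart.

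The 2 tKO libraries differed from each other in TNFRSF1A more than the dKO libraries did. Library tKO 2 had 0.186 of the CPM of tKO 1 (exact 95% interval 0.128 to 0.266), a log2 difference of -2.39. Among 11324 tested genes with a mean of at least 100 counts in dKO, 336 lay more than 2-fold apart between the tKO libraries and 3 did between the dKO libraries. A ratio of tKO 2 to dKO as low as that of TNFRSF1A was found for 20 of these genes, itself included, and a ratio of tKO 1 to dKO as low as its own for 609.

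**Figure D1:**
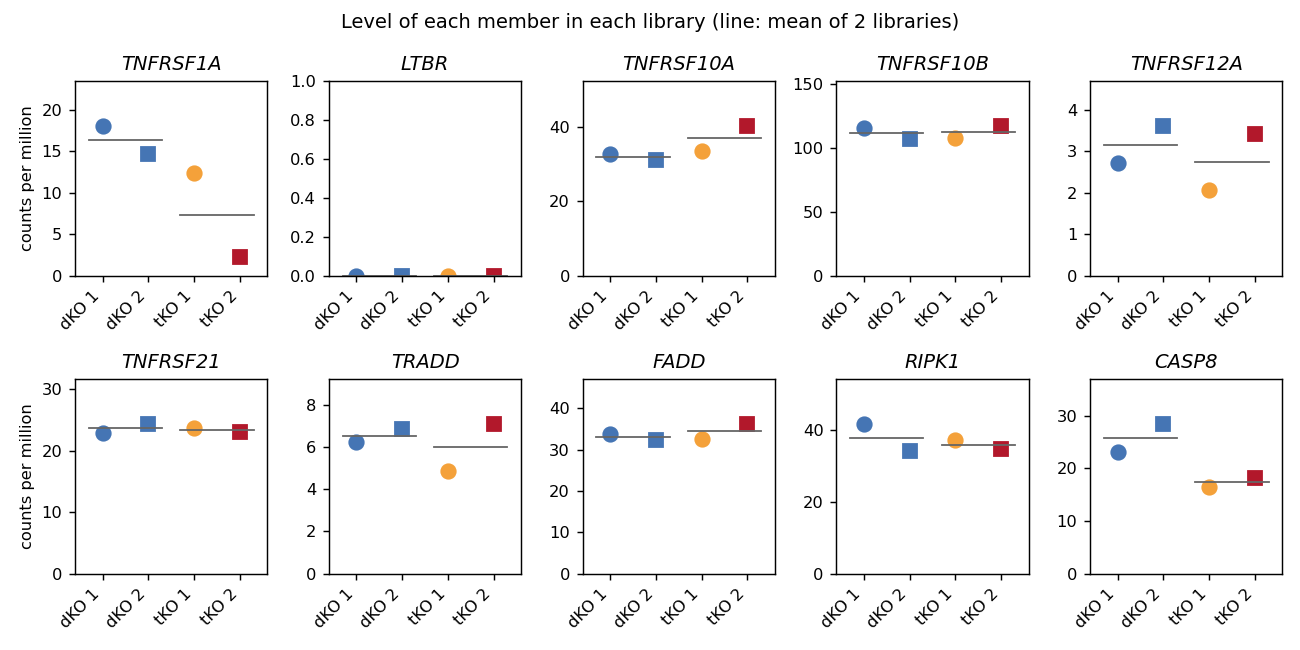
Level of each of the 10 genes in CPM (y axis, from 0) in libraries dKO 1, dKO 2, tKO 1 and tKO 2, with a line at the mean of each pair. TNFRSF1A is lowest in tKO 2 (2.30 CPM), both tKO libraries lie below both dKO libraries for CASP8, and LTBR is at 0 throughout.

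LTBR was listed at 0 counts in all 4 libraries, on either strand and without strand, which allows up to 0.163 CPM in dKO 1 and 0.187 CPM in tKO 2. At this depth its transcript was not detectable in either group, and no fold change was computed. SCNN1A and PLEKHG6, the genes directly beside TNFRSF1A at 4.73 kb and 0.251 kb, were also at 0 in all libraries.

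Only CD9 and CD27-AS1 were tested among the genes within 100 kb of TNFRSF1A. CD9, a tetraspanin of the cell surface 90.5 kb away, had 933 and 1076 counts in dKO, 713 in tKO 1 and 794 in tKO 2 (log2 ratios to the dKO mean of -0.32 and -0.16). CD27-AS1, an antisense RNA 96.9 kb away, had 25 and 21 counts in dKO, 10 in tKO 1 and 6 in tKO 2 (log2 ratios -0.91 and -1.49, limma unadjusted p = 0.0199, adjusted p = 0.996). Over all 41 tested genes within 1 Mb the median log2 ratio was 0.00 in tKO 1 and 0.01 in tKO 2. CD27-AS1 was the 1 neighbour below -1 in tKO 2, where TNFRSF1A stood at -2.77. GAPDH, inside this window, had log2 ratios of -0.01 and 0.13.

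**Figure D2:**
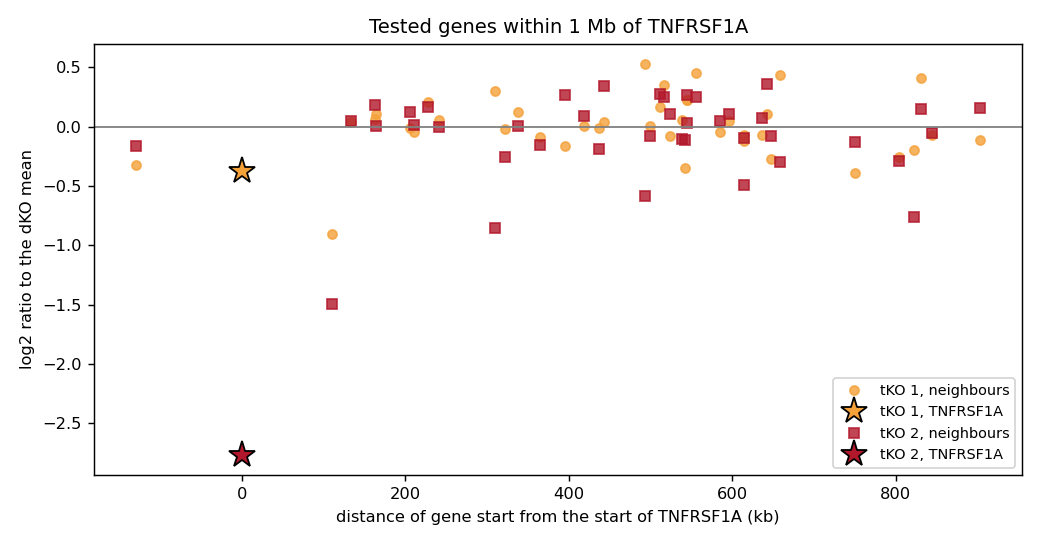
Log2 ratio to the dKO mean in tKO 1 and tKO 2 (y axis) of the 41 tested genes within 1 Mb of TNFRSF1A, by distance of their start from its start in kb (x axis). Stars are TNFRSF1A, at -0.38 in tKO 1 and -2.77 in tKO 2, and the neighbours centre on 0 in both libraries.

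By a distance over the 4 log2 ratios to the dKO mean, the genes nearest to TNFRSF1A among 10689 with a mean log2 CPM above 3 were LGALS8, TIMP1, SULF2, EMC10 and CSRP1. The distance was 0.329 for LGALS8 and 0.636 for CSRP1. LGALS8, a galectin, had 379 and 347 counts in dKO, 292 in tKO 1 and 52 in tKO 2. TIMP1, an inhibitor of matrix metalloproteinases, had 441 and 402 counts in dKO, 245 in tKO 1 and 42 in tKO 2. Each of the 5 was lower in tKO 2 than in the other libraries, which the choice by likeness sets, and none lies on chromosome 12.

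Neither TRAIL receptor was below dKO in both tKO libraries. TNFRSF10B (DR5, ENSG00000120889.8, chromosome 8, 22877646 to 22926544, minus strand) had 2141 counts (116 CPM) in dKO 1, 1933 (107 CPM) in dKO 2, 1777 (108 CPM) in tKO 1 and 1883 (117 CPM) in tKO 2. The groups overlapped, and the log2 fold change was 0.02 ± 0.10 with an interval of -0.22 to 0.26, so a change beyond 1.20-fold in either direction lay outside the interval. TNFRSF10A (DR4, ENSG00000104689.5, chromosome 8, 23047965 to 23082615, minus strand) had 605 counts (32.8 CPM) in dKO 1, 561 (31.2 CPM) in dKO 2, 551 (33.6 CPM) in tKO 1 and 646 (40.2 CPM) in tKO 2. Both tKO libraries were above both dKO libraries, tKO 1 by less than the distance between the dKO pair. The log2 fold change was 0.20 ± 0.14 (limma unadjusted p = 0.183, adjusted p = 0.996), and tKO 2 held 126% of the dKO level (114 to 139).

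TNFRSF12A, the receptor of TWEAK (ENSG00000006327.9, chromosome 16, 3068446 to 3072384, plus strand), was the least abundant of the tested members. It had 50 counts (2.71 CPM) in dKO 1, 65 (3.61 CPM) in dKO 2, 34 (2.07 CPM) in tKO 1 and 55 (3.43 CPM) in tKO 2. Its low library was tKO 1, at 65.7% of dKO (43.4 to 97.0), while tKO 2 stood at 109% (77.3 to 151). The ratio of tKO 2 to tKO 1 was 1.65 (1.06 to 2.62), and at these counts the log2 fold change of -0.22 ± 0.33 left an interval of -1.01 to 0.58.

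TNFRSF21 (DR6, ENSG00000146072.6, chromosome 6, 47199268 to 47277641, minus strand) had the most even values among the 5 tested member receptors. It had 422 counts (22.9 CPM) in dKO 1, 439 (24.4 CPM) in dKO 2, 388 (23.6 CPM) in tKO 1 and 371 (23.1 CPM) in tKO 2. Both tKO values lay between the dKO values, and the log2 fold change was -0.01 ± 0.14 with an interval of -0.34 to 0.31.

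Adaptor and kinase transcripts overlapped between the groups. TRADD, the first adaptor of TNFRSF1A (ENSG00000102871.11, chromosome 16, 67188088 to 67193812, minus strand), had 115 counts (6.23 CPM) in dKO 1, 123 (6.84 CPM) in dKO 2, 80 (4.87 CPM) in tKO 1 and 114 (7.10 CPM) in tKO 2. As with TNFRSF12A, tKO 1 was the low library, at 74.6% of dKO (57.2 to 96.5), and tKO 2 exceeded it by 1.46-fold (1.09 to 1.96). The group difference was -0.14 ± 0.25 on the log2 scale.

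FADD, which links death receptors to CASP8 (ENSG00000168040.4, chromosome 11, 70049402 to 70053496, plus strand), had 624 counts (33.8 CPM) in dKO 1, 579 (32.2 CPM) in dKO 2, 534 (32.5 CPM) in tKO 1 and 582 (36.3 CPM) in tKO 2. RIPK1, a kinase with a death domain (ENSG00000137275.9, chromosome 6, 3064058 to 3115421, plus strand), had 770 counts (41.7 CPM) in dKO 1, 612 (34.0 CPM) in dKO 2, 609 (37.1 CPM) in tKO 1 and 555 (34.6 CPM) in tKO 2. For RIPK1 the largest distance was between the dKO libraries, dKO 2 holding 0.815 of dKO 1, and both tKO libraries fell between them. The log2 fold change was 0.06 ± 0.13 for FADD (interval -0.24 to 0.37) and -0.07 ± 0.15 for RIPK1 (interval -0.43 to 0.29). FADD counts depended on strand. Without strand only 55, 55, 39 and 84 reads (in library order) were assigned to it. The 534 to 624 above are stranded counts, the setting used for every gene.

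CASP8, the initiator caspase of this pathway (ENSG00000064012.17, chromosome 2, 202098166 to 202226559, plus strand), was the 1 member that was low by a like amount in both tKO libraries. It had 426 counts (23.1 CPM) in dKO 1, 513 (28.5 CPM) in dKO 2, 271 (16.5 CPM) in tKO 1 and 293 (18.3 CPM) in tKO 2. Both tKO libraries were below both dKO libraries, and the pairs did not overlap. Library tKO 1 held 64.1% of the dKO level (55.8 to 73.4) and tKO 2 held 70.8% (61.9 to 80.8). The dKO libraries themselves differed by 1.24-fold (1.08 to 1.41).

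The log2 fold change of CASP8 was -0.56 ± 0.16 (interval -0.94 to -0.17), equal to 0.680-fold (0.520 to 0.889). Its unadjusted p in limma was 0.0118, and after adjustment over all tested genes it did not pass (adjusted p = 0.996), with 126 genes at an unadjusted p as small. Set alone against dKO, tKO 1 gave -0.62 ± 0.17 (limma adjusted p = 0.0171) and tKO 2 gave -0.50 ± 0.17 (limma adjusted p = 0.0452). Those fits share the dKO libraries. The first had 2.93% and the second 8.32% of all tested genes at an adjusted p below 0.05, and neither value of CASP8 reached an absolute log2 fold change of 1. The 18 tested genes within 1 Mb of CASP8 had median log2 ratios of 0.05 in tKO 1 and -0.06 in tKO 2.

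**Figure D3:**
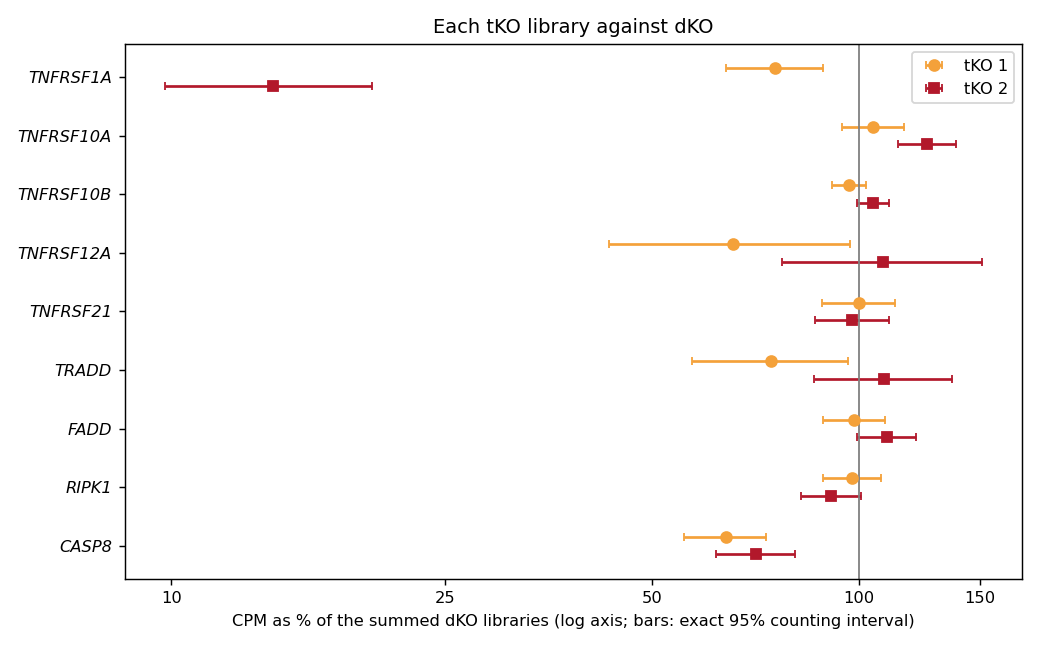
CPM in tKO 1 and tKO 2 as a percentage of the summed dKO libraries (x axis, log scale) for the 9 tested members, with exact 95% intervals that cover counting error only. TNFRSF1A in tKO 2 stands at 14.1%, CASP8 at 64.1% and 70.8%, and the remaining points between 65.7% and 126%, with TNFRSF1A in tKO 1 at 75.5%.

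Of the 9 tested members, 0 passed in limma (adjusted p under 0.05 with more than a 2-fold change), where 0.0132% of all tested genes did. An unadjusted p below 0.05 was reached by 1 member (CASP8), against 3.55% of all tested genes. The edgeR quasi-likelihood test and DESeq2 also called 0 members. Both tKO libraries lay below both dKO libraries for 2 members (TNFRSF1A and CASP8), against 15.9% of all genes, and groups did not overlap for 3 (with TNFRSF10A), against 31.7%. More than 2-fold from the dKO mean were 0 members in tKO 1, against 2.45% of all genes, and 1 in tKO 2 (TNFRSF1A), against 4.40%. The log2 fold change was below 0 for 6 members and above 0 for 3, with a median of -0.07 beside -0.00137 for all tested genes. Across the 8 tested members other than TNFRSF1A, the log2 ratio of a single tKO library to the dKO mean ran from -0.62 to 0.32.

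Levels were compared between genes as RPKM, which is CPM per kilobase of exon. Of 29 receptors of the superfamily (the 6 members and 23 others), 15 were tested and 9 had no counts in any library. TNFRSF10B had the highest level, 23.2 and 21.4 RPKM in dKO and 21.6 and 23.4 in tKO, and TNFRSF10A was second with 10.7 to 13.7. The ranges of these receptors did not overlap. TNFRSF19, TNFRSF1B (the other TNF receptor), TNFRSF10D (a decoy receptor of TRAIL) and TNFRSF21 followed with mean levels of 8.36, 7.55, 7.02 and 6.54 RPKM. The ranges of neighbours in this order overlapped, while those of TNFRSF19 (7.39 to 9.15) and TNFRSF21 (6.36 to 6.79) did not.

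TNFRSF1A came ninth by its mean. Its own RPKM was 4.29 and 3.49 in the dKO libraries, 2.94 in tKO 1 and 0.548 in tKO 2, so that in 3 libraries it overlapped with RELT and in tKO 2 it lay at the level of TNFRSF13C. It made up 5.21% and 4.27% of the summed receptor RPKM in dKO, 3.68% in tKO 1 and 0.656% in tKO 2. The sum itself moved little, from 79.9 to 83.6 RPKM over the 4 libraries. The ratio of TNFRSF1A to TNFRSF1B was 0.571 and 0.406 in dKO, 0.385 in tKO 1 and 0.0850 in tKO 2. TRADD stood at 0.668 and 0.902 times TNFRSF1A in dKO, 0.763 in tKO 1 and 5.96 in tKO 2.

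**Figure D4:**
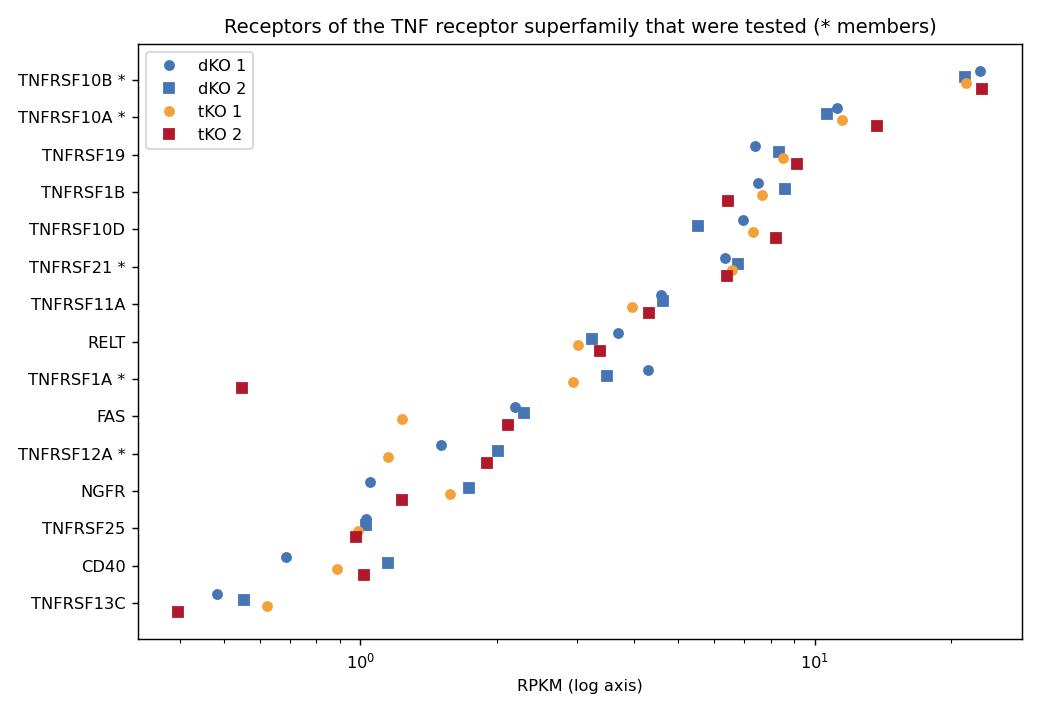
Level in RPKM (x axis, log scale) of the 15 tested receptors of the TNF receptor superfamily in each of the 4 libraries, ordered by their mean, with members marked by an asterisk. TNFRSF10B is highest at 21.4 to 23.4 RPKM, and the tKO 2 point of TNFRSF1A (0.548) stands apart from its other 3 (2.94 to 4.29).

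Among the intracellular members FADD had the highest level per length (18.8 to 21.2 RPKM), and TRADD, RIPK1 and CASP8 lay close together with means of 2.88, 3.03 and 2.98 RPKM. That closeness rests on exon lengths of 2173 bases for TRADD, 12173 for RIPK1 and 7237 for CASP8. Their mean CPM in dKO were 6.53, 37.9 and 25.8, beside 33.0 for FADD. FADD exceeded CASP8 by 6.21 and 4.78 times in dKO and by 8.35 and 8.42 times in tKO. CFLAR encodes c-FLIP, a catalytically inactive relative that competes with CASP8 for FADD. CASP8 stood at 1.20 and 1.61 times CFLAR in dKO, 0.907 in tKO 1 and 1.03 in tKO 2. For both ratios the groups did not overlap. Both contain CASP8, whose own groups did not overlap, as for 31.7% of all tested genes, so the ratios are no separate result. CFLAR itself had log2 ratios to dKO of 0.00 and -0.07. By CPM, which takes no account of length, CFLAR (55.0 to 59.8) lay above CASP8 (16.5 to 28.5) in every library. The order of CASP8 and CFLAR thus depends on the exon lengths used.

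The pathway around the members was read from 5 lists with 95 genes, of which 93 were found in the count files by identifier, 59 were tested and 21 had no counts in any library. In limma 0 of the 59 passed in either direction, against 0.0132% of all tested genes (edgeR and DESeq2 also called 0). An unadjusted p below 0.05 in limma was reached by 0 of the 59, against 3.55% of all tested genes. The median log2 fold change was -0.01 (range -0.54 to 0.47), beside -0.00137 for all tested genes. Groups did not overlap for 16 of the 59, lower in tKO for 10 of them, where 31.7% and 15.9% of all tested genes did so, which puts both counts near the background.

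Of the 23 other receptors, 10 were tested, with a median log2 fold change of -0.06, and 8 were at 0. FAS, the receptor of FAS ligand, had 144 and 147 counts in dKO, 72 in tKO 1 and 121 in tKO 2, so its low library was tKO 1 and not tKO 2. TNFRSF10D had the smallest unadjusted p of all listed genes (0.0983), with 455 and 353 counts in dKO, 425 in tKO 1 and 467 in tKO 2.

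Ligands were sparsely transcribed, 5 of 18 being tested. TNF, LTA, LTB and FASLG were among the 9 of 18 with no counts in any library, so the main ligands of TNFRSF1A and of LTBR were not detectable at this depth. TNFSF10, which encodes TRAIL, had 11 and 14 counts in dKO, 17 in tKO 1 and 10 in tKO 2. The 5 tested ligands had a median log2 fold change of -0.09, with CD70 (20.6 RPKM), EDA (5.33) and TNFSF9 (3.05) the highest.

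Receptor-proximal adaptors, ubiquitin enzymes and kinases were all transcribed, 23 of 23 found being tested with a median log2 fold change of -0.00. TAB2, TRAF4 and BIRC2 had the highest levels (19.8, 14.4 and 11.5 RPKM). BIRC3, an inhibitor of apoptosis and a target of NF-kB, was the 1 listed gene more than 2-fold from the dKO mean in either tKO library. Over all tested genes 2.45% were that far in tKO 1 and 4.40% in tKO 2. BIRC3 had 5 and 25 counts in dKO, 25 in tKO 1 and 9 in tKO 2, so the dKO libraries spanned the same range as the tKO libraries. TRAF2, which TRADD recruits, had 744, 612, 576 and 696 counts in library order.

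Of the 12 death execution genes 10 were tested, with a median log2 fold change of -0.02. CASP6 and DFFA had the highest levels (17.3 and 16.3 RPKM). RIPK3, the kinase that RIPK1 engages in necroptosis, had no counts in any library, and CASP10, the relative of CASP8 beside it on chromosome 2, had 2 counts in dKO 1 and none elsewhere.

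Among 17 NF-kB subunits, inhibitors and target genes found, 11 were tested, with a median log2 fold change of 0.09. NFKBIB, RELA and TNFAIP2 had the highest levels (19.2, 10.3 and 7.21 RPKM). The inducible targets CXCL8, CCL20 and CXCL10 had no counts in any library, and CXCL1 and IL6 had at most 1. CXCL2 had 1 to 6 counts, whereas CCL2 was tested, with 54 and 50 counts in dKO, 54 in tKO 1 and 36 in tKO 2. ICAM1 had 38 and 39 counts in dKO, 22 in tKO 1 and 24 in tKO 2 (log2 fold change -0.54 ± 0.30, limma unadjusted p = 0.114, adjusted p = 0.996), and NFKBIA had 303 and 234 counts in dKO, 282 in tKO 1 and 243 in tKO 2.

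**Figure D5:**
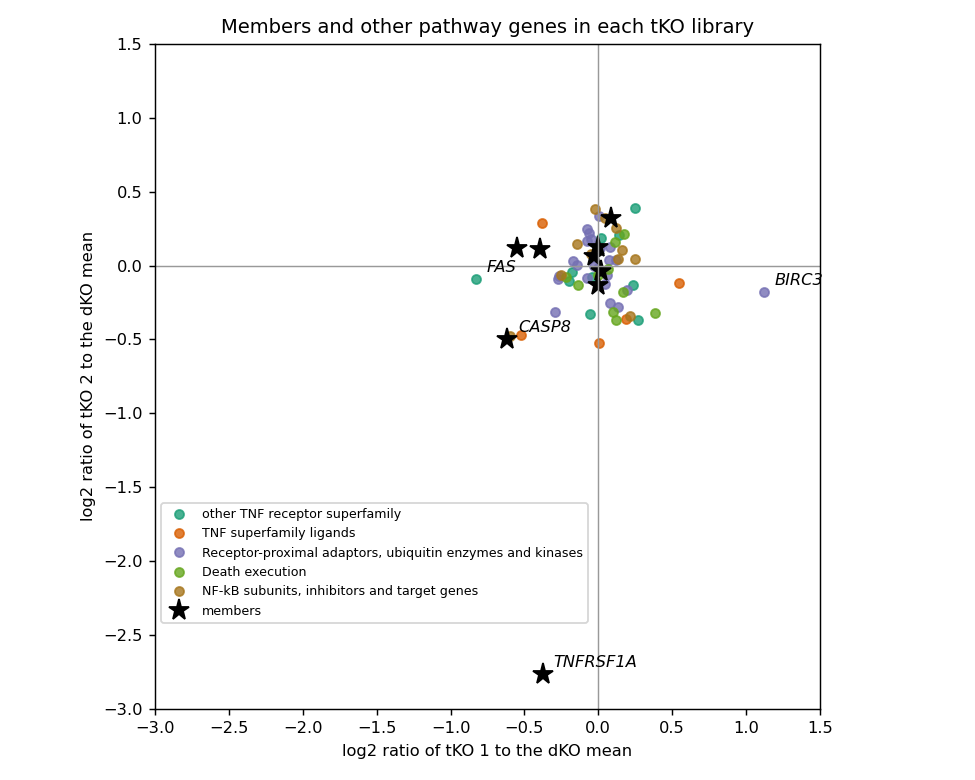
Log2 ratio to the dKO mean in tKO 1 (x axis) against that in tKO 2 (y axis) for the 9 tested members (stars) and 59 other tested pathway genes coloured by list. TNFRSF1A stands apart at -0.38 and -2.77, CASP8 lies below 0 on both axes, and most other genes lie near 0 on both.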

How the data were processed

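Per the labels and the study's methods, polyadenylated RNA was made into stranded libraries. The authors trimmed reads with cutadapt (1.12) through Trim Galore (0.4.4), removed ribosomal reads with Bowtie (1.2) and mapped the rest to GRCh37 with STAR (2.5.2b). The deposited values are raw read counts per GENCODE release 19 gene from uniquely mapped reads, in 3 strand settings. The submitters' processing notes also name RSEM (1.2.25) and Bowtie2 (2.2.6), which the study's methods give for other samples. The count for the kit's strand was used; the opposite strand took 4.01 to 4.24% of stranded gene reads. Reads that name no gene (27.3 to 28.7% of all reads, with unmapped and multimapping reads among them) stayed out of library totals. Reads shared by near-identical genes were not counted, which can understate such genes.

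Groups and replicate numbers came from sample titles. Genes with CPM above 0.5 in at least 2 libraries were fitted in limma (3.58.1, R 4.3.3) on log2 CPM with a prior count of 2, TMM sizes from edgeR (4.0.16) and a mean-variance trend. Benjamini-Hochberg adjustment covered all 15136 tested genes, and a gene passed when its adjusted p was under 0.05 with an absolute log2 fold change over 1. All adjusted p-values are limma's unless another tool is named. The prior count understates changes of low genes. The fit was tested on simulated counts with the same changes in both tKO libraries, so the test does not cover a divergence between them. CPM was counts over gene totals, with no TMM factor. Log2 ratios of 1 tKO library use the fit's log2 CPM, and percentages of dKO the counts with exact binomial 95% intervals. RPKM used exon lengths of GENCODE release 44 lifted to GRCh37, which gave symbols for 97.5% of tested genes; an exon length that differs from release 19 would shift levels between genes.

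Alternatives were other normalizations (RLE, library totals), filters, prior count and strand setting, limma without a trend, limma-voom, edgeR's quasi-likelihood test, DESeq2 (1.42.0), a replicate block and leaving out each library. Numbers 1 and 2 recur in both groups. With 2 pairs and a correlation of deviations of 0.0581 nothing shows that they pair the libraries. The members, lists and the rule for named genes were chosen with earlier results of these data known. Named were the members, any list gene past the threshold, the 3 genes of highest RPKM in each list (1 of these is not reported here), list genes over 2-fold from dKO with at least 20 counts in a library, tested genes within 100 kb of TNFRSF1A, the 5 nearest in pattern and the targeted genes. Genes named beyond this rule (FAS, TNFRSF10D, TNFSF10, TRAF2, CFLAR, CASP10, RIPK3, CXCL1, CXCL2, CCL2, IL6, ICAM1, NFKBIA, GAPDH, and those named as at 0 or as receptors beside TNFRSF1A) were chosen after their values were seen.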

Additional observations from a re-analysis of the deposited data

Results flagged for a closer look

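For 3 members the deposited counts of the opposite strand, which enter no comparison above, exceeded in every library the 3 counts taken as the limit of detection. TNFRSF10A had 5 and 12 such counts in dKO 1 and 2, and 8 and 10 in tKO 1 and 2. RIPK1 had 5, 10, 6 and 6 in the same order of libraries, and CASP8 had 9, 10, 4 and 7. These counts were 1.46%, 1.05% and 1.96% of the stranded reads of TNFRSF10A, RIPK1 and CASP8, below the 4.01 to 4.24% taken by that strand over all genes.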

How the results depend on the processing

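Among the 9 tested members, 0 passed under each alternative except without tKO 1, where TNFRSF1A did (leave-one-out range 0 to 1). Its log2 fold change kept its sign, from -2.77 without tKO 1 to -0.38 without tKO 2. With every library kept it was -1.57 in the main limma fit and -1.14 in both edgeR and DESeq2. The unadjusted p of TNFRSF1A then ran from 0.0050 (limma with the replicate block) to 0.287 (DESeq2). Each of the 5 lists had 0 genes past the threshold throughout. Genes past the threshold over the whole table numbered 2, against 0 with no filter (1447 at an unadjusted p below 0.05), 1 at CPM above 5, with edgeR's quasi-likelihood test, with no mean-variance trend and with unstranded counts, 25 with DESeq2, 13 with the replicate block, and 0 to 492 on leaving out a library (0 without dKO 1, 0 without dKO 2, 492 without tKO 1, 183 without tKO 2). The replicate block changed no call among the members, with an adjusted p of 0.712 for TNFRSF1A and 0.846 for CASP8. Set against the other tKO library, the log2 ratio of TNFRSF1A was 2.39 for tKO 1 and -2.39 for tKO 2. CASP8 stayed between -0.70 (without dKO 1) and -0.42 (without dKO 2) under every alternative, so its size depended on which dKO library was kept. On leaving out each library, the log2 fold change changed sign for 6 members, RIPK1 (-0.23 to 0.0855), TNFRSF10B (-0.0485 to 0.0802), TNFRSF21 (-0.0504 to 0.0249), TNFRSF12A (-0.55 to 0.12), TRADD (-0.40 to 0.11) and FADD (-0.00313 to 0.13). With unstranded counts, which keep few FADD reads, the log2 ratio of FADD was -0.32 in tKO 1 and 0.76 in tKO 2. The causes of these shifts were not tested. TNFRSF12A had no value at CPM above 5, since it did not pass that filter. With 2 libraries a group, the standard error of TNFRSF1A (0.69) exceeded that of every other member (at most 0.33), and no change of LTBR below 3 counts could be seen.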
